A study of Mus musculus with 4 samples.

Results

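The genes described here encode the proteins that let calcium into the cytosol of a cell and take it out again. They are the pore-forming subunits of voltage-gated calcium channels (Cacna1 genes), their auxiliary subunits (Cacna2d, Cacnb and Cacng genes), the ryanodine and IP3 receptors that release calcium from the endoplasmic reticulum (Ryr and Itpr genes), and the calcium pumps of the endoplasmic reticulum (Atp2a) and the plasma membrane (Atp2b). Members were chosen by a rule on gene symbols, and 39 of the 24421 genes in the tables belong to the group. There are 10 pore-forming subunits, 4 alpha2delta, 4 beta and 8 gamma subunits, 3 ryanodine receptors, 3 IP3 receptors, 3 pumps of the endoplasmic reticulum and 4 of the plasma membrane. The study, on ERK signalling in a mouse model of Noonan syndrome, compared RNA from brain cells labelled excitatory (αCaMKII-positive) with RNA from brain cells labelled inhibitory (vGAT-positive), with 2 libraries per label. Each library was made from 100 fluorescent cells picked by hand. Per the labels' protocols, the mice came from αCaMKII-Cre and vGAT-IRES-Cre colonies bred to wild-type C57Bl/6J mice and were males of 3 to 5 months. The labels give no Noonan syndrome allele for these 4 libraries, and they do not say which reporter made the cells fluoresce, how many animals were pooled, or whether the libraries of a label came from separate animals. Spread between the 2 libraries of a label may therefore be technical, and the p-values below measure nothing beyond it.

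In a neuron, depolarization opens voltage-gated channels, and the calcium that enters triggers transmitter release at terminals and, in dendrites and the soma, activates kinases, including those that lead to ERK, and gene transcription. Auxiliary subunits set how many channels reach the membrane and how they gate. Ryanodine and IP3 receptors add calcium from internal stores, and pumps restore the low resting level.

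Values are on the deposited scale, log2 of normalized reads, and every difference below is excitatory minus inhibitory on that log2 scale. The lowest values do not bear out an added 1 (see How the data were processed), but linear levels and scaled values below assume it. From the spacing of the lowest values, a library held an estimated 61900000 to 74300000 reads. The highest gene, the myelin gene Mbp, has 21.33 in all 4 libraries, so the deposited scale holds it equal. Over all 13619 tested genes the median difference was 0.52 in the deposited values and -0.01 after median-of-ratios scaling, so values after that scaling, called scaled, are given as well. A gene passed when its limma p, adjusted over all tested genes by the Benjamini-Hochberg method, was under 0.05. Marker genes of the labelled types went only partly with the labels. Camk2a, the gene of αCaMKII, had 16.53 and 16.47 under the excitatory label against 15.60 and 15.66 under the inhibitory label, while all 4 libraries list Slc32a1, which encodes vGAT, at 0. Slc17a7, a glutamate transporter gene, had 12.19 and 12.06 against 11.99 and 11.67, and the GABA synthesis genes Gad1 (10.91 and 11.17 against 11.45 and 11.59) and Gad2 (9.73 and 10.39 against 10.14 and 10.13) stood near or above 10 under both labels, where only Gad1 passed, and only after scaling (-1.02, adjusted p = 0.00768). Excitatory and inhibitory therefore name libraries by their labels.

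Transcripts of other cells differed between the labels as well, and their part in the results below was not tested. Values here are the summed level of a marker list as a share of all normalized reads. The 8 microglia markers made up 0.0448% to 0.0497% of the excitatory and 0.158% to 0.196% of the inhibitory libraries, and 0 of them passed as higher and 5 as lower in the excitatory libraries (scaled 0 and 7). The 8 oligodendrocyte markers made up 3.72% to 3.78% and 5.04% to 5.13% (5 higher and 0 lower, scaled 5 and 2), and the 8 astrocyte markers 2.58% to 2.63% and 2.19% to 2.37% (6 higher and 0 lower, scaled 3 and 2). The 6 oligodendrocyte precursor markers made up 0.00375% to 0.00399% of the excitatory and 0.00766% to 0.00942% of the inhibitory libraries (1 higher and 2 lower, also after scaling), with Pdgfra at 0 in both excitatory libraries and Gpr17 and Sox10 at 0 in both inhibitory libraries. The 8 endothelial and mural markers made up 0.00144% to 0.00164% and 1.9e-05% to 3.48e-05%, with Cldn5, Tek and Myh11 at 0 in all 4 libraries (3 higher and 0 lower, also after scaling). The 5 blood markers made up 2.13e-05% to 3.74e-05% and 0.00707% to 0.0123%, with Hbb-bs and Hbb-bt at 0 in both excitatory libraries and Alas2 at 0 in both inhibitory libraries (1 higher and 4 lower, also after scaling). The 9 glutamatergic markers made up 0.136% to 0.137% of the excitatory and 0.104% to 0.105% of the inhibitory libraries (5 higher and 2 lower, also after scaling), the 9 GABAergic markers 0.0171% to 0.0189% and 0.0165% to 0.0179% (2 higher and 1 lower, scaled 1 and 2), and the 10 interneuron subclass markers 0.0192% to 0.0201% and 0.0228% to 0.0268% (4 higher and 4 lower, scaled 2 and 4). Of 6 markers of cerebellar, dopamine, acetylcholine and serotonin neurons, Gabra6, Th, Slc6a3 and Tph2 were at 0 in all 4 libraries. Chat was above 0 only in inhibitory 2 (0.84). Pcp2, a Purkinje cell marker and the only one tested, had 7.63 and 8.45 under the excitatory label against 0 and 2.38 under the inhibitory label. It passed as higher (adjusted p = 0.00227, scaled 0.00451).

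Promoter sequences are shown for the members with the largest differences in each direction, since these genes stood at opposite ends of the comparison. The RefSeq promoter table (GRCm38.p6) held 29 of the 39 members, with 41 start sites. From the 6 members that passed, had a single start in that table and had it within 100 bases of the GENCODE gene start, the 2 with the largest positive and the 2 with the largest negative difference were taken, after their values were seen. Cacnb2 (-7.93) and Cacna1e (-5.56) had larger negative differences than Cacna1i (-4.71) but did not meet the conditions on the start. Each sequence is the 250 bases before the start on the gene's own strand, 5′ to 3′. Capitals mark the GC box GGGCGG or its reverse complement and the TGACG core of the cyclic AMP response element or its reverse complement. The windows are chr14:29721865-29722114 (minus strand) for Cacna2d3, chr7:29125152-29125401 (minus) for Ryr1, chr5:15934441-15934690 (plus) for Cacna2d1 and chr15:80286988-80287237 (plus) for Cacna1i.
Cacna2d3: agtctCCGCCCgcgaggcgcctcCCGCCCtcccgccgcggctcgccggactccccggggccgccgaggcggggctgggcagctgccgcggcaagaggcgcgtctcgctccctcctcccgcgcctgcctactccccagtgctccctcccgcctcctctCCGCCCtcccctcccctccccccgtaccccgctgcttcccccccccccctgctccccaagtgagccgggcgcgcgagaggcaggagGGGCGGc
Ryr1: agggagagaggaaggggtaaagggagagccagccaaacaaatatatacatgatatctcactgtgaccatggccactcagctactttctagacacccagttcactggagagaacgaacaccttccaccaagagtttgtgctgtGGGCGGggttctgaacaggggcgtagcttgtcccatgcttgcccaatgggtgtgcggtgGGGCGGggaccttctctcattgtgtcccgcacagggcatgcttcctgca
Cacna2d1: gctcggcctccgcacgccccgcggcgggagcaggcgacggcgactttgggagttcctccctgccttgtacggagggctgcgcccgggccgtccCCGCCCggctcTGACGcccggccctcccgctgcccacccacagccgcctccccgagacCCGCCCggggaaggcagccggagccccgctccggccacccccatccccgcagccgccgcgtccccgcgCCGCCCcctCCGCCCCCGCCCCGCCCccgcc
Cacna1i: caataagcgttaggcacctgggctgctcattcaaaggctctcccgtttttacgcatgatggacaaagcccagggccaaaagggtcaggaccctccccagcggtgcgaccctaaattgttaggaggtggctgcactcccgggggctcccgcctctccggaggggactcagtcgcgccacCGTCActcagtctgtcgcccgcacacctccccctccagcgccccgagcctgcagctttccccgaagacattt

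The GC box occurred 4 times upstream of Cacna2d3, 2 times upstream of Ryr1 and 6 times upstream of Cacna2d1, counting overlapping matches, and 0 times upstream of Cacna1i. TGACG occurred 1 time each upstream of Cacna2d1 and Cacna1i. The GC content was 80.0% upstream of Cacna2d3, 82.4% upstream of Cacna2d1, 62.4% upstream of Cacna1i and 54.8% upstream of Ryr1. Genes high under either label thus included GC-rich starts. Over all member promoters, 22 of 41 held a GC box (53.7%), against 32.7% of all 32851 promoters of that length. Member promoters were also richer in GC, with a median of 62.4% against 52.4% for all promoters and a median of 12 against 6 CpG, and the part of base composition in the motif shares was not tested. TGACG stood in 12.2% of member and 17.8% of all promoters, the TATA box TATAAA in 2.44% and 12.4%, the AP-1 motif TGANTCA in 2.44% and 6.75%, and the E-box CACGTG in 2.44% and 6.02%. Motifs were searched on both strands, TGACG is part of TGACGTCA, and members with several starts count more than 1 time. The full cyclic AMP response element TGACGTCA and the EGR motif GCGTGGGCG were in 0 of 41 member promoters, against 1.55% and 0.536% of all promoters.

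Calcium channel and pump genes differed between the labels in both directions, and in 4 families (pore-forming, alpha2delta, beta and plasma membrane pump genes) both directions occurred. Of the 39 members, 28 reached a value of 1 in 2 or more libraries, which was the condition for a test. Of these 28, 23 passed (82.1%), against 71.8% of all tested genes: 16 (57.1%) were higher and 7 (25.0%) lower in the excitatory libraries, against 45.0% and 26.8% of all tested genes. After scaling 19 passed, against 65.9% of all tested genes: 12 (42.9%) were higher and 7 (25.0%) lower, against 32.4% and 33.5% of all tested genes. With so many genes differing, these shares are read only against that background. The libraries of the labels did not overlap for 25 of the 28 (89.3%), against 86.4% of all tested genes. All 19 that passed after scaling had passed in the deposited values with the same direction. The median scaled difference was 0.51 for the tested members and -0.01 for all tested genes, and 14 of the 28 members and 43.0% of all tested genes differed by over 2 in size after scaling. In these pooled cells, fewer cells of a type and less RNA per cell cannot be told apart.

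**Figure D1:**
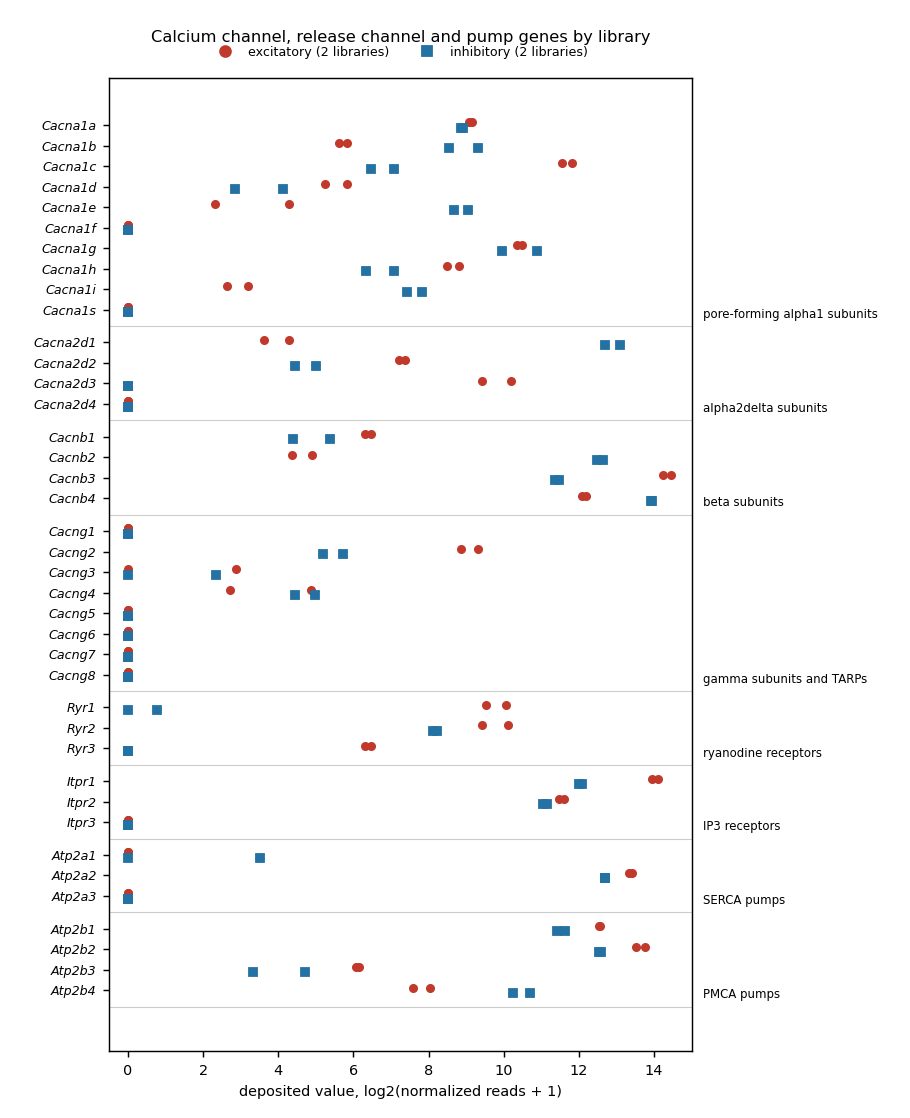
Deposited value (log2, horizontal axis, whose label assumes an added 1) of all 39 members, by class. Circles are the 2 excitatory and squares the 2 inhibitory libraries. Cacna2d1 and Cacnb2 stand between 3.63 and 4.89 in the excitatory and between 12.47 and 13.09 in the inhibitory libraries, and Cacna2d3, Ryr1 and Ryr3 show the opposite arrangement, with values of at least 6.32 in the excitatory libraries and below 1 in the inhibitory ones.

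Of the 8 tested pore-forming subunits 3 were higher, 3 lower and 2 did not pass (scaled 2, 3 and 3). Cacna1c, which encodes the main L-type channel of brain and heart, had 11.55 and 11.81 under the excitatory label against 6.47 and 7.07 under the inhibitory label. Its libraries were far apart by label, a 30.1-fold difference (4.91, SE 0.30, adjusted p = 0.000226; scaled 4.37, 20.7-fold). Cacna1d, the gene of the other neuronal L-type channel, had 5.83 and 5.25 under the excitatory label against 2.84 and 4.12 under the inhibitory label. It was higher in the excitatory libraries too (2.06, SE 0.57, adjusted p = 0.0275), but at an estimated 44 and 31 against 9 and 19 reads, and it did not pass after scaling (1.55, adjusted p = 0.0642). Its call was lost without any 1 library: excitatory 1 (adjusted p = 0.241), excitatory 2 (0.172), inhibitory 1 (0.124) or inhibitory 2 (0.055). The L-type genes of skeletal muscle and retina, Cacna1s and Cacna1f, were listed at 0 in all 4 libraries.

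The channels of presynaptic terminals did not move together. Cacna1a, which encodes the P/Q-type channel, had 9.15 and 9.08 under the excitatory label against 8.88 and 8.91 under the inhibitory label. These values lie close together (0.22, SE 0.22, adjusted p = 0.404), and the sign turned after scaling (-0.32, adjusted p = 0.24). Cacna1b, the gene of the N-type channel, had 5.62 and 5.82 under the excitatory label against 9.33 and 8.54 under the inhibitory label. It was 9.26-fold lower under the excitatory label (-3.21, SE 0.38, adjusted p = 0.00162; scaled -3.75), a call lost without excitatory 1 (adjusted p = 0.0726) or excitatory 2 (0.0676). Cacna1e, the gene of the R-type channel, had 4.28 and 2.31 under the excitatory label against 9.04 and 8.68 under the inhibitory label. The excitatory values stand for an estimated 15 and 4 reads, against 732 and 467 (-5.56, SE 0.73, adjusted p = 0.00228; scaled -6.07). That call was lost without inhibitory 1 (adjusted p = 0.1) or inhibitory 2 (0.0918).

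Among the T-type channels, which open at low voltage and support burst firing, each of the 3 genes behaved differently. Cacna1g had 10.35 and 10.49 in the excitatory libraries, inside the range of 10.88 and 9.95 in the inhibitory libraries (0.00, SE 0.36, adjusted p = 0.995; scaled -0.54, adjusted p = 0.281). Cacna1h had 8.80 and 8.498 under the excitatory label against 6.33 and 7.07 under the inhibitory label. It was 3.85-fold higher under the excitatory label (1.95, SE 0.37, adjusted p = 0.0079; scaled 1.41, adjusted p = 0.0212) and lost its call without excitatory 1 (adjusted p = 0.131), excitatory 2 (0.108) or inhibitory 1 (0.068). Cacna1i had 3.19 and 2.63 under the excitatory label against 7.42 and 7.82 under the inhibitory label, or an estimated 7 and 5 against 237 and 257 reads. It was 26.2-fold lower under the excitatory label (-4.71, SE 0.39, adjusted p = 0.000535; scaled -5.21).

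Within a library the scaling cancels, so the make-up of each family can be read without it. Levels per kilobase of merged exons were divided by the sum of the family. Cacna1c made up 37.7% and 41.8% of the pore-forming level in the excitatory libraries, against 1.21% and 2.66% in the inhibitory libraries. Cacna1b made up 1.29% and 1.38% against 18.8% and 15.7%, Cacna1e 0.195% and 0.0389% against 6.09% and 6.82%, and Cacna1i 0.219% and 0.13% against 5.05% and 9.6%. Cacna1g was a large part under both labels, with 34.2% and 35.0% in the excitatory and 54.3% and 41.1% in the inhibitory libraries. Cacna1a made up 13.2% and 11.7% in the excitatory and 12% and 17.8% in the inhibitory libraries, which overlap. The summed pore-forming level per kilobase was 376 and 404 normalized reads in the excitatory and 343 and 237 in the inhibitory libraries.

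**Figure D2:**
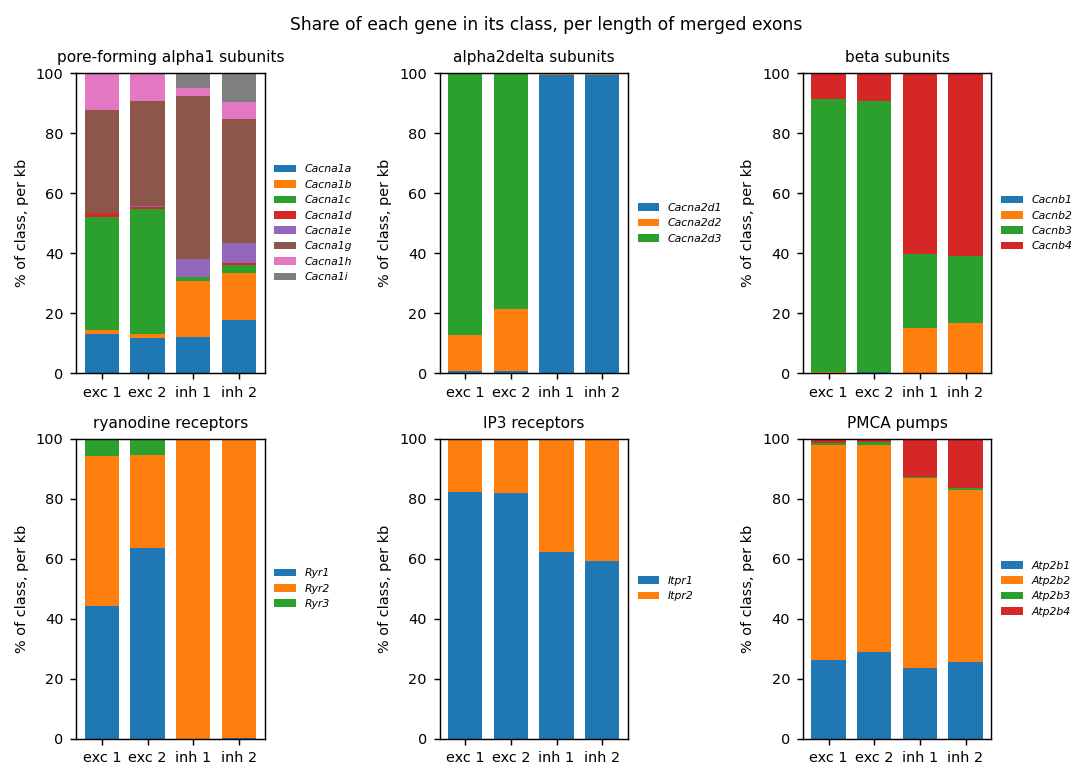
Share of each gene in its family (percent of the summed level per kilobase, vertical axis) in each of the 4 libraries, excitatory left of inhibitory, for 6 families; genes listed at 0 in all 4 libraries are not drawn. The alpha2delta bars change from Cacna2d3 (87.0% and 78.3%) in the excitatory to Cacna2d1 (99.4% and 99.5%) in the inhibitory libraries, and the beta bars from Cacnb3 (91.1% and 90.5%) to Cacnb4 (60.1% and 60.8%).

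The alpha2delta subunits, extracellular proteins that carry channels to the surface, differed in which gene led the family: of 3 tested, 2 were higher and 1 lower, also after scaling. Cacna2d3 had 10.20 and 9.42 under the excitatory label, with a listed 0 in each inhibitory library (adjusted p = 0.000101; scaled 0.000131). Of all tested genes 5.54% were at 0 in both inhibitory libraries with at least 5 in both excitatory ones, and a listed 0 is not read as absence. Cacna2d1, whose protein binds the drug gabapentin, went the other way, with 4.28 and 3.63 under the excitatory label against 13.09 and 12.71 under the inhibitory label. It was 494-fold lower under the excitatory label (-8.95, SE 0.35, adjusted p = 9.49e-05; scaled -9.47), where it stood at an estimated 15 and 10 reads against 12150 and 7658. Cacna2d2 had 7.22 and 7.37 under the excitatory label against 5.02 and 4.45 under the inhibitory label. It was 5.92-fold higher under the excitatory label (2.56, SE 0.36, adjusted p = 0.0029; scaled 2.03, adjusted p = 0.00887), a call lost without excitatory 1 (adjusted p = 0.0631) or excitatory 2 (0.0672). Cacna2d4, known from the retina, was listed at 0 in all 4 libraries. The summed level of the family per kilobase was 155 and 100 normalized reads in the excitatory and 708 and 541 in the inhibitory libraries.

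The beta subunits bind the pore-forming subunit inside the cell and help it reach the membrane. Of these 4 genes 2 were higher and 2 lower in the excitatory libraries (scaled 1 and 2). Cacnb3 had 14.45 and 14.23 under the excitatory label against 11.48 and 11.36 under the inhibitory label, a 7.58-fold difference (2.92, SE 0.14, adjusted p = 0.000118; scaled 2.38). Cacnb4, whose loss causes ataxia and seizures in the lethargic mouse, had 12.20 and 12.08 under the excitatory label against 13.92 and 13.96 under the inhibitory label. It was 3.48-fold lower under the excitatory label (-1.80, SE 0.11, adjusted p = 0.000242; scaled -2.34). Cacnb2, the main beta subunit of the heart, had 4.38 and 4.89 under the excitatory label against 12.47 and 12.65 under the inhibitory label. That is an estimated 16 and 24 against 7905 and 7356 reads, 244-fold lower under the excitatory label (-7.93, SE 0.29, adjusted p = 9.49e-05; scaled -8.46). Cacnb1, the beta subunit of skeletal muscle, had 6.46 and 6.30 under the excitatory label against 5.38 and 4.39 under the inhibitory label. It passed in the deposited values (1.49, SE 0.46, adjusted p = 0.037) and not after scaling (0.96, adjusted p = 0.142), nor without excitatory 1 (adjusted p = 0.238), excitatory 2 (0.209) or inhibitory 2 (0.0912). The log2 ratio of Cacnb3 to Cacnb4 per kilobase was 3.41 and 3.31 in the excitatory and -1.29 and -1.44 in the inhibitory libraries, so the leading beta gene differed between the labels. Cacnb2 made up 0.0243% and 0.0408% of the family level in the excitatory and 14.9% and 16.6% in the inhibitory libraries.

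The gamma genes include the TARPs, proteins that carry AMPA receptors to synapses more than they act on calcium channels. Cacng2, which encodes stargazin, had 8.87 and 9.31 under the excitatory label against 5.20 and 5.71 under the inhibitory label. It was 12.4-fold higher under the excitatory label (3.64, SE 0.35, adjusted p = 0.000842; scaled 3.10). The TARP gene Cacng4 had 2.71 and 4.88 under the excitatory label against 4.99 and 4.45 under the inhibitory label, and the TARP gene Cacng3 had 0 and 2.87 against 2.34 and 0. Both pairs of groups overlap, neither passed (adjusted p = 0.356 and 0.864), and the values rest on at most an estimated 43 and 6 reads. Cacng1 and Cacng6, known from skeletal muscle, and the other TARP genes Cacng5, Cacng7 and Cacng8 were listed at 0 in all 4 libraries. In all, 10 of 39 members (25.6%) were at 0 in all 4 libraries, against 39.2% of all genes in the tables.

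The release channels of the endoplasmic reticulum were higher in the excitatory libraries wherever they passed. Ryr2, the ryanodine receptor of the heart and the main one of the brain, had 10.11 and 9.41 under the excitatory label against 8.11 and 8.22 under the inhibitory label. It was 3.02-fold higher (1.60, SE 0.32, adjusted p = 0.00966; scaled 1.06, adjusted p = 0.034) and lost its call without excitatory 1 (adjusted p = 0.0524), inhibitory 1 (0.139) or inhibitory 2 (0.125). Ryr1, the receptor of skeletal muscle, had 9.53 and 10.05 in the excitatory libraries and 0 and 0.79 in the inhibitory libraries (adjusted p = 0.000123, scaled 0.000203). The single inhibitory value above 0 stands for a few reads at most. Ryr3 had 6.46 and 6.32 in the excitatory libraries, an estimated 68 and 65 reads, and had a listed 0 in each inhibitory library (adjusted p = 0.000169; scaled 0.00022). Ryr1 made up 44.1% and 63.6% of the ryanodine receptor level per kilobase in the excitatory libraries, against 0% and 0.319% in the inhibitory libraries, where Ryr2 made up nearly all of it.

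Itpr1, the IP3 receptor known for its high level in Purkinje cells and forebrain neurons, had 14.10 and 13.94 under the excitatory label against 12.08 and 11.997 under the inhibitory label. It was 3.96-fold higher under the excitatory label (1.99, SE 0.12, adjusted p = 0.00022; scaled 1.44). Itpr2, known as the main IP3 receptor of astrocytes, had 11.60 and 11.47 under the excitatory label against 11.06 and 11.16 under the inhibitory label. Its difference did not pass (0.43, SE 0.16, adjusted p = 0.064) and changed sign after scaling (-0.12, adjusted p = 0.517). Itpr1 made up 82.1% and 81.8% of the IP3 receptor level per kilobase in the excitatory and 62.2% and 59.1% in the inhibitory libraries. Itpr3 was listed at 0 in all 4 libraries. The summed level of the family per kilobase was 1170 and 1050 normalized reads in the excitatory and 380 and 377 in the inhibitory libraries.

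The pump genes Atp2a2, Atp2b1 and Atp2b2 had the smallest differences among the 23 members that passed in the deposited values. Atp2a2, the pump that refills the endoplasmic reticulum in brain and heart, had 13.32 and 13.40 under the excitatory label against 12.71 and 12.69 under the inhibitory label. Its difference of 0.66 (SE 0.11, adjusted p = 0.00481) is close to the median of all genes, and it did not pass after scaling (0.12, adjusted p = 0.417). It made up at least 99.7% of its family per kilobase in each library. Atp2a3 was listed at 0 in all 4 libraries, and Atp2a1, the pump of fast skeletal muscle, had 0 and 0 under the excitatory label against 0 and 3.52 under the inhibitory label and was not tested.

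Of the 4 plasma membrane pumps 3 were higher and 1 lower (scaled 2 and 1), and Atp2b2 and Atp2b1 were the leading pumps under both labels. Atp2b2, which encodes a fast pump of neurons, had 13.75 and 13.52 under the excitatory label against 12.58 and 12.53 under the inhibitory label (1.08, SE 0.13, adjusted p = 0.00178). Scaled, it was 1.45-fold higher (0.54, adjusted p = 0.0188), and in the deposited values the call was lost without inhibitory 1 (adjusted p = 0.056) or inhibitory 2 (0.0584). Atp2b1, the pump made by most cell types, had 12.57 and 12.53 under the excitatory label against 11.43 and 11.63 under the inhibitory label (1.02, SE 0.15, adjusted p = 0.00306; scaled 0.48, adjusted p = 0.0301), a call lost without excitatory 1 (adjusted p = 0.0599) or excitatory 2 (0.0574). Atp2b4 was the exception, with 8.03 and 7.58 under the excitatory label against 10.26 and 10.69 under the inhibitory label. It was 6.35-fold lower under the excitatory label (-2.67, SE 0.30, adjusted p = 0.00131; scaled -3.21), with an adjusted p of 0.0502 without excitatory 2 and 0.0512 without inhibitory 2. Atp2b3 had 6.15 and 6.08 under the excitatory label against 3.32 and 4.71 under the inhibitory label. It passed in the deposited values (2.10, SE 0.56, adjusted p = 0.0244) and not after scaling (1.58, adjusted p = 0.059), nor without excitatory 1 (adjusted p = 0.22) or excitatory 2 (0.21). Atp2b4 made up 1.39% and 1.16% of the plasma membrane pump level per kilobase in the excitatory and 13% and 16.5% in the inhibitory libraries.

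**Figure D3:**
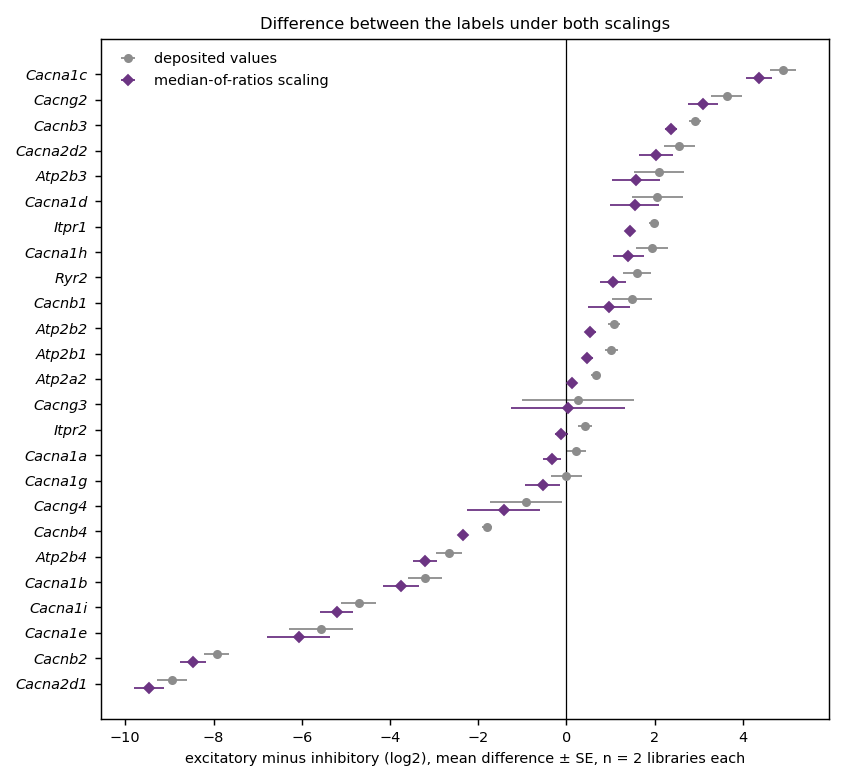
Difference between the labels (excitatory minus inhibitory, log2, horizontal axis, with the standard error of limma's fit as bars, n = 2 libraries each) for 25 tested members, in the deposited values (circles) and after median-of-ratios scaling (diamonds); Cacna2d3, Ryr1 and Ryr3 are left out because their inhibitory libraries were at or near 0. Scaling moves every member towards lower values, and Cacna1a, Cacna1g and Itpr2 stand above 0 before it and below 0 after it.

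Some member values may share reads with other genes, since neither library kit is described as marking strand. How reads on shared bases were counted is not given. Exons of 15 of the 39 members overlap an exon of a gene on the opposite strand in GENCODE release M21, and for 4 members such a gene has a row in the tables. Exons of Ryr3 (chromosome 2, positions 112631355 to 113217096) share 916 bases, or 4.83% of its merged exons, with Aven, an inhibitor of cell death. Aven had 10.09 and 10.62 under the excitatory label, with a listed 0 in each inhibitory library, the same arrangement as Ryr3 at a higher level. Atp2a1 shares 763 bases, 21.9% of its exons, with Rabep2, which had 0 and 0 under the excitatory label against 5.28 and 5.71 under the inhibitory label, where the only Atp2a1 value above 0 was found. Reads on the shared bases of these pairs cannot be told apart, while the other exon bases of each gene are its own or were not compared here. For Cacna1d with Chdh (589 bases) and Cacna1h with Tpsg1 (158 bases), the partner did not pass (Chdh 2.97 and 3.47 against 4.44 and 3.71, adjusted p = 0.152; Tpsg1 5.18 and 5.43 against 4.43 and 5.26, adjusted p = 0.389). Cacnb4 shares 1433 bases, 15.99% of its exons, with A430018G15Rik, which has no listed level. Other members that passed also overlap genes without a listed level. Among them are Cacng2 with A730060N03Rik (323 bases, 5.86%), Cacnb2 with Gm10849 (618 bases, 4.67%) and Ryr1 with Gm26604 (864 bases, 3.96%). Between paralogs the overlap was small: for each of Cacna1g and Cacna1i, 19 stretches of 50 bases were shared with the other (0.182% and 0.201% of their stretches were shared with any other gene).

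**Figure D4:**
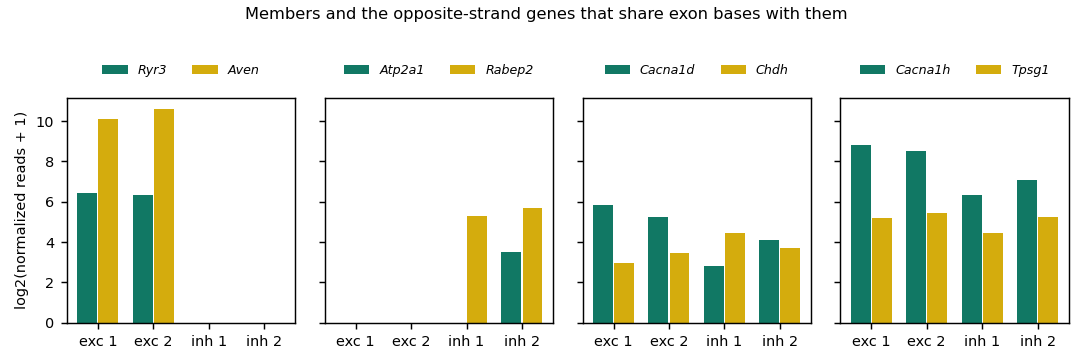
Deposited values (log2, vertical axis, whose label assumes an added 1) of 4 members, in the 2 excitatory (left) and 2 inhibitory libraries. The opposite-strand gene that shares exon bases with each member is drawn beside it. Ryr3 and Aven are above 0 only in the excitatory libraries, with 6.46 and 6.32 and with 10.09 and 10.62, and the Chdh values are lower in the excitatory than in the inhibitory libraries while those of Cacna1d are higher.

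Other genes of calcium handling were compared as 6 lists, chosen by function. Of 6 tested sodium-calcium exchangers, 5 were higher in the excitatory libraries and 0 lower (scaled 4 and 0). Slc24a2 had 13.16 and 13.27 under the excitatory label against 7.31 and 8.30 under the inhibitory label (5.41, SE 0.37, adjusted p = 0.000309; scaled 4.87), with an adjusted p of 0.0503 without excitatory 2. Slc8a2 had 6.15 and 7.31 against 3.77 and 2.799 (adjusted p = 0.00574), and Slc8a3 had 6.01 and 6.11 against 4.11 and 3.39 (0.00607). Slc24a5 had 9.03 and 8.75 against 6.80 and 7.46 (adjusted p = 0.00847). These 3 calls were lost without 1 library: Slc8a2 without any of the 4 (adjusted p from 0.0659 to 0.11), Slc8a3 without excitatory 1 (0.088) or excitatory 2 (0.0913), and Slc24a5 without excitatory 1 (0.129), excitatory 2 (0.106) or inhibitory 1 (0.0697).

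Store-operated entry refills the endoplasmic reticulum from outside the cell, with STIM sensors and ORAI pores. Of its 6 genes 3 were higher and 2 lower in the excitatory libraries, also after scaling. The sensor gene Stim1 had 9.53 and 8.80 under the excitatory label against 5.65 and 5.66 under the inhibitory label (3.51, SE 0.36, adjusted p = 0.00102; scaled 2.97), a call lost without inhibitory 1 (adjusted p = 0.0563) or inhibitory 2 (0.0555). Saraf, which limits this entry, had 14.72 and 14.64 against 13.34 and 13.28 (1.38, SE 0.09, adjusted p = 0.000281; scaled 0.83). The pore gene Orai1 was lower, with 3.38 and 3.76 under the excitatory label against 9.02 and 8.72 under the inhibitory label, and Orai3 had a listed 0 in each excitatory library, against 7.61 and 8.01 in the inhibitory libraries. Of all tested genes, 5.37% had that arrangement with at least 5 in both inhibitory libraries.

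Calcium uptake by mitochondria runs through the uniporter MCU and its gatekeepers. Of 7 tested genes 3 were higher and 2 lower in the excitatory libraries (scaled 2 and 2). The pore gene Mcu had 1.98 and 2.31 under the excitatory label against 9.59 and 9.39 under the inhibitory label (-7.35, SE 0.34, adjusted p = 0.000113; scaled -7.82). The gatekeeper gene Micu2 had a listed 0 in each excitatory library, against 7.09 and 7.81 in the inhibitory libraries. Micu3, the gene of another gatekeeper, had 8.83 and 8.79 under the excitatory label against 6.13 and 7.09 under the inhibitory label (2.20, SE 0.41, adjusted p = 0.00744; scaled 1.66). Its call was lost without excitatory 1 (adjusted p = 0.139) or excitatory 2 (0.135).

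Of 11 tested genes of calcium storage and release-channel partners 8 were higher and 1 lower in the excitatory libraries (scaled 4 and 2). Pln, whose protein restrains the pump of Atp2a2 in the heart, had 7.39 and 7.08 under the excitatory label against 0 and 0.78 under the inhibitory label (adjusted p = 0.000257). Sri, the gene of the ryanodine receptor partner sorcin, had 14.75 and 14.73 against 13.57 and 13.61 (1.15, SE 0.08, adjusted p = 0.000368; scaled 0.61). Asph, which gives rise to junctin, had 15.31 and 15.23 against 13.22 and 13.66 (adjusted p = 0.000713), and Jph4, a neuronal junctophilin, 13.28 and 13.28 against 12.06 and 11.75 (0.00139). Without excitatory 1 or excitatory 2 the calls of Asph (adjusted p = 0.0671 and 0.0639) and Jph4 (0.0639 and 0.0635) were lost.

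The list of voltage-gated channel partners also held genes of the sodium leak channel complex and of synaptic adhesion. Of its 12 tested genes 6 were higher and 2 lower in the excitatory libraries (scaled 5 and 3). Both lower genes in the deposited values were among these additions, not calcium channel partners. Rims2, an active zone protein gene, had 13.63 and 13.60 under the excitatory label against 11.64 and 11.18 under the inhibitory label (2.20, SE 0.19, adjusted p = 0.000626; scaled 1.66), a call lost without excitatory 1 (adjusted p = 0.0576) or excitatory 2 (0.0572). Cabp1, a calcium sensor that binds channels, had 10.41 and 10.37 against 7.82 and 7.66 (2.65, SE 0.22, adjusted p = 0.000546; scaled 2.11). Unc79, part of the sodium leak channel complex, had 12.64 and 12.74 against 10.73 and 10.69 (1.98, SE 0.14, adjusted p = 0.000348; scaled 1.44). Gem, a small GTPase gene whose product inhibits calcium channels, had 5.12 and 3.88 under the excitatory label, with a listed 0 in each inhibitory library, a call lost without inhibitory 1 (adjusted p = 0.0701) or inhibitory 2 (0.0693).

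Of 20 calcium sensors and buffers 9 were higher and 4 lower in the excitatory libraries, and the balance turned after scaling (2 and 9). Necab2 had 13.28 and 13.01 under the excitatory label against 9.41 and 9.63 under the inhibitory label (3.63, SE 0.19, adjusted p = 0.000145; scaled 3.09), while its relative Necab3 had a listed 0 in each excitatory library, against 7.32 and 7.94 in the inhibitory libraries. Ncald, the gene of neurocalcin delta, had 15.91 and 15.94 against 14.55 and 14.36 (1.48, SE 0.09, adjusted p = 0.000233; scaled 0.93). Caln1 was lower, with 10.75 and 10.74 under the excitatory label against 12.78 and 12.52 under the inhibitory label (-1.90, SE 0.16, adjusted p = 0.00058; scaled -2.44).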

How the data were processed

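Total RNA of 4 libraries, 2 labelled excitatory and 2 labelled inhibitory, was profiled with the SMART-seq v4 and Nextera XT kits, per the labels' protocols. The authors' deposited tables hold 1 log2 value per gene and library. The base and the depth were read from the even spacing of low values (1.3, 1.23, 0.72 and 0.873 on the linear scale in excitatory 1, excitatory 2, inhibitory 1 and inhibitory 2). For linear levels and scaled values, an added 1 was assumed. The lowest band of values above 0 then stood at 0.315, 0.248, 0.391 and 0.727, each below that library's spacing, so an added 1 is not borne out. Without it, 1 read in an inhibitory library would fall below 1 on the linear scale and could be listed at 0. Read numbers count the lowest band above 0 as 1 read and are estimates, so no counting interval is printed. Without an added 1, the lowest inhibitory band would stand for more than 1 read, and low inhibitory read numbers would be too low. Per the submitters' processing notes, TopHat, edgeR and the build mm10 were used; for their versions, the counter and the annotation, the answer is not given in the sources used here.

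limma 3.58.1 in R 4.3.3 fitted the difference between labels, using its trend option, over genes reaching 1 in 2 or more libraries. It had 2 residual and 2.56 prior degrees of freedom, with Benjamini-Hochberg adjustment over all of these genes. In simulated data with 50 changed genes per size, the fit recovered 12% of differences of 0.5, 60% of 1, 98% of 2 and 100% of 4. There were 15 false calls. Few genes were changed there, all at high values, so recovery at low values or with most genes differing was not tested. Positions and merged exon lengths came from GENCODE M21 (build of mm10), promoters from RefSeq. No member had the same 4 values as another gene (0 found). Members and lists were chosen with earlier results of these data known. Every member is named; of each other list, up to 4 genes that passed are named, by smallest p. A result that this rule names in the mitochondrial list is not reported here. Alternatives were other scalings, filters, pseudocount, no trend, a replicate block and leaving out each library. The main fit did not pair libraries by replicate number (see How the results depend on the processing).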

Additional observations from a re-analysis of the deposited data

How the results depend on the processing

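Of the 23 members that passed, 12 also passed without any 1 library, and 11 passed under every alternative run: Cacna1c, Cacna2d3, Cacnb3, Cacng2, Itpr1, Ryr1 and Ryr3 (higher in the excitatory libraries) and Cacna1i, Cacna2d1, Cacnb2 and Cacnb4 (lower). The twelfth, Atp2a2, did not pass under either scaling. No filter on low values, the filter of at least 5 (which leaves out Cacng3 and Cacng4), the pseudocount of 8 and the fit without a trend changed no member's call. Median-of-ratios and upper-quartile scaling each ended 4 calls (Atp2a2, Atp2b3, Cacna1d and Cacnb1) and turned the sign of Cacna1a (-0.32 and -0.30), Cacna1g (-0.54 and -0.52), Itpr2 (-0.12 and -0.10) and Slc17a7 (-0.24 and -0.23); none of these 4 passed in any of these fits. Signs of members that did not pass also turned without 1 library. On leaving out 1 library, Cacna1g ranged from -0.46 (without inhibitory replicate 2, and -0.07 without excitatory replicate 2) to 0.47. Cacng3 ranged from -1.17 (without excitatory replicate 2, and -0.91 without inhibitory replicate 2) to 1.70, and Cacng4 from -2.01 to 0.17 (without excitatory replicate 1). The marker gene Gad2, which is not a member, ranged from -0.40 to 0.25 (without excitatory replicate 1). Leaving out each library gave 9 to 12 members higher (16 with all libraries) and 5 to 6 lower (7), and over all tested genes 3530 to 4241 higher (6122) and 2310 to 2627 lower (3655). Over the 6 other lists together, 34 genes were higher and 11 lower; median-of-ratios scaling gave 20 and 18, upper-quartile scaling 22 and 18, and leaving out each library 14 to 24 and 6 to 8. The replicate block changed no call among the members (16 higher and 7 lower). The deviations of excitatory 1 and inhibitory 1 from their group means correlated at -0.00193 over 13619 genes. Same-numbered libraries thus showed no common deviation, but this cannot tell whether they were prepared together. Leaving out a library leaves 1 in its label, assumed to vary like the other label. At this depth some members with few reads under 1 or both labels, such as Cacna1d, Cacna1e, Atp2b3, Cacng3 and Cacng4, set only wide limits. Cacna1i and Cacna2d1 passed under every run but also had few reads in the excitatory libraries, an estimated 7 and 5 and an estimated 15 and 10.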

Other observations

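Several members lie beside each other in the genome (GENCODE M21, build of mm10), and neighbours did not share a pattern throughout. On chromosome 14, Cacna2d3 and Cacna1d stand 318 kb apart, and both were higher in the excitatory libraries in the deposited values. On chromosome 6, Cacna2d4 stands 40.1 kb from Cacna1c and was listed at 0 in all 4 libraries, while Cacna1c had 11.55 and 11.81 under the excitatory label against 6.47 and 7.07 under the inhibitory label. The gamma genes Cacng7, Cacng8 and Cacng6 stand within 22.5 kb and 8.55 kb of each other on chromosome 7 and were all at 0 in all 4 libraries. On chromosome 11, Cacng4, with 2.71 and 4.88 under the excitatory label against 4.99 and 4.45 under the inhibitory label, stands 15.8 kb from Cacng1 and 80.0 kb from Cacng5, both listed at 0.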
